A study of Brassica rapa with 36 samples.

Results

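Late unicellular microspores of the Brassica rapa line K2 were compared with those of the line 49CX. Their 6 libraries, 3 of each line, were taken by their labels from the 36 libraries of the series. K2 is described as inducible to androgenesis and 49CX as non-inducible. K2 late microspores (the stage before heat induction), 49CX late microspores, and stalk leaf of K2 and of 49CX (3 libraries each) carry the main comparisons. Microspores of both lines sampled without heat shock and with it, K2 pollen and K2 embryos are used where named. The labels give no cross, allele, plant age, number of cells or plants per library, and do not say that replicates came from separate plants. The p-values below therefore measure the spread among these particular libraries alone, and that spread may be technical.

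Microspores are the haploid products of meiosis in the anther. In the plant a late unicellular microspore divides asymmetrically and matures into pollen. In androgenesis a stress such as heat diverts it, and it divides into an embryo that can give rise to a haploid or doubled haploid plant. Lines of Brassica differ widely in how readily this happens, and the late unicellular stage is the usual starting material. The comparison addresses how far the inducible and the non-inducible line differ in their transcripts before heat is given. In libraries made from many cells, fewer cells of a type and less RNA per cell cannot be told apart.

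K2 late libraries held 529458, 216693 and 216793 reads assigned to genes, and 49CX late libraries 112228, 85651 and 113517. K2 leaf held 761216 to 1179935 and 49CX leaf 213245 to 536090. The K2 libraries were thus the deeper ones in both tissues. A floor of 3 counts over the 3 pooled late libraries stood at 3.12 CPM (a gene's count as a share of all gene counts, on the usual scale) in K2 and 9.63 in 49CX. Reads outside any annotated gene made up 69.6% to 83.5% in K2 late and 72.4% to 81.6% in 49CX late libraries. Reads that fell on more than 1 gene were 0.696% to 0.719% of gene and ambiguous reads in K2 late and 0.691% to 0.835% in 49CX late libraries. In leaf they were 0.712% to 1.03% in K2 and 0.211% to 0.258% in 49CX, and in unheated K2 microspores 0.248% to 0.281%. This share thus moved with the line in leaf, its part in the leaf results was not tested, and in the late libraries the lines overlapped. K2 late replicates 2 and 3 were close to sampling noise, by a chi-square test over 5483 genes whose statistic was 1.04 per degree of freedom, where the other late pairs had 1.14 to 1.33. They were kept apart because their reads outside genes differed, at 83.5% and 77.1%, and summing them is given as an alternative.

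The 3 K2 libraries resembled each other more than they resembled any 49CX library. Over the 9376 genes tested, Pearson's r of log2(CPM + 1) was 0.877 to 0.916 among K2 late libraries and 0.664 to 0.690 among 49CX late libraries. Between a K2 and a 49CX library it was 0.382 to 0.447 over the 9 pairs. These are correlations across genes, which are not independent replicates, and the shallower 49CX libraries carry more counting noise.

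The lines differed before heat in about 1 of 3 tested genes, a share that depends on which genes are tested. Of 9376 genes, 3033 (32.3%) were called, 1550 (16.5%) higher and 1483 (15.8%) lower in K2 late microspores (edgeR's quasi-likelihood test over 18 microspore libraries, Benjamini-Hochberg adjusted p under 0.05). CPM of the 3 K2 and the 3 49CX late libraries did not overlap for 4218 genes (45%). By at least 2-fold, 1412 (15.1%) were higher and 1339 (14.3%) lower in K2. The share called and the balance of directions depended on the treatment of low counts. Fitted and filtered on the 6 late libraries alone, 2125 of 4221 genes were called, 1122 higher and 1003 lower. With no filter on low counts 3248 of 45011 were called, 2075 higher and 1173 lower. With every library thinned to 85651 counts, 810 were called, 281 higher and 529 lower, among the 3108 genes that then passed the filter.

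Many of these differences were large. Among called genes the median log2 fold change was 2.01 for those higher and -1.94 for those lower in K2. At least 4-fold differences numbered 781 higher and 702 lower in K2. At least 16-fold differences numbered 226 higher and 258 lower, and at least 64-fold 63 higher and 67 lower. Fitted fold changes of genes at 0 in one line depend on the prior count, so these upper bins are descriptions. Over all genes tested the median was -0.01. Called genes were spread over all 10 prefixes of the gene IDs (BraC01 to BraC10), where 28.7% (BraC10) to 34.1% (BraC09) of tested genes were called.

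Calls higher in K2 were most frequent among the most abundant genes, and calls lower in K2 at both ends of the range. Tested genes were split into 5 equal bins by mean CPM over the 6 late libraries. From the lowest to the highest bin, the share called higher in K2 was 5.28%, 14.7%, 15.3%, 19.1% and 28.3%. The share called lower in K2 was 19.99%, 12.6%, 11.3%, 14.1% and 21.1%. Among called genes the median absolute log2 fold change was 3.40 in the lowest and 1.33 in the highest bin. In the lowest bin, under 28.8 CPM, lower calls outnumbered higher ones by 375 to 99. A floor of 3 counts in a single 49CX late library lies at 26.4 to 35.0 CPM, near the upper end of this bin.

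**Figure D1:**
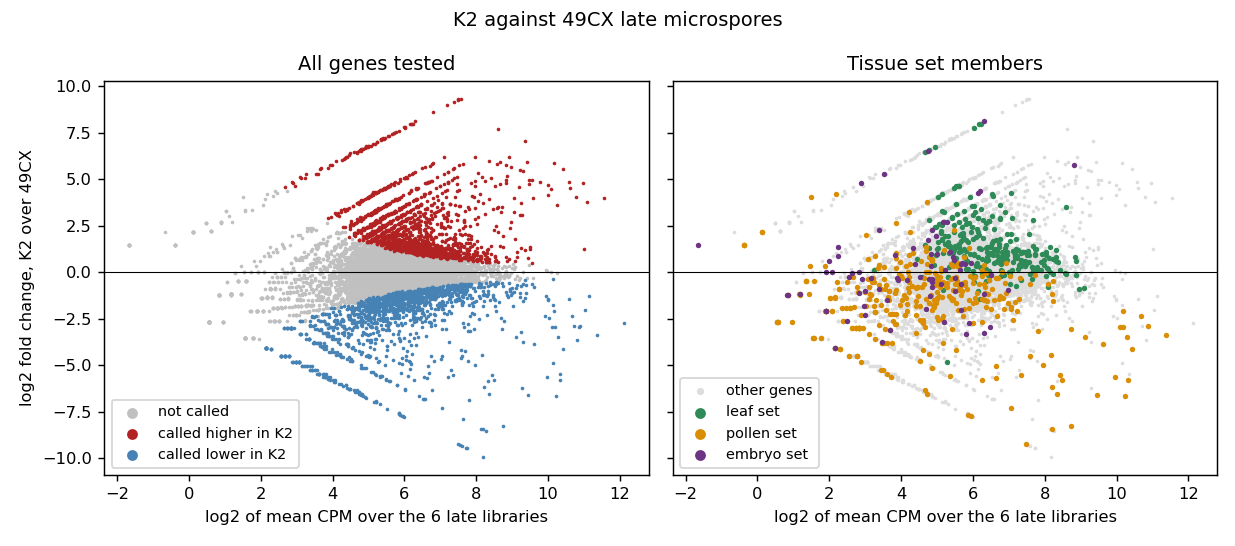
Each point is 1 of the 9376 tested genes, by the log2 of its mean CPM over the 6 late libraries (x) and its log2 fold change, K2 over 49CX late microspores (y). Left, the 1550 genes called higher and the 1483 called lower in K2 lie above and below the uncalled genes, and genes with no late count are not drawn. Right, leaf set members lie mostly above 0 and pollen set members mostly below.

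The IDs carry no gene names, so genes were grouped by the tissue that marks them in K2. The sets used no microspore library. K2 pollen, K2 leaf and K2 embryos were compared, and an ID entered a set when one tissue exceeded both others by at least 4-fold (edgeR, adjusted p under 0.05), up to 500 IDs by p. The pollen and leaf sets held 500 IDs each and the embryo set 209. The K2 embryo libraries held 6021 to 170479 gene counts, of which pollen set genes made up 0.794% to 7.56%. How far this shaped the sets was not tested. The pollen set rests on 1 library, since the other pollen libraries held no gene counts, and has no replicate check. The set libraries are all K2, so a set holds genes as K2 uses them.

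Pollen set genes were lower in K2 late microspores. They made up 1.22%, 1.17% and 1.16% of gene counts in the K2 late libraries and 5.80%, 5.52% and 5.96% in the 49CX late libraries. Every K2 library was below every 49CX library. The means were 1.18% ± 0.0344 in K2 and 5.76% ± 0.224 in 49CX (SD, n = 3 each), 4.86-fold lower in K2. The difference of -4.58 percentage points was -2.19 without the 10 members with most counts. The exact 2-sided permutation p was 0.1, the smallest that 3 against 3 allows. By pooled CPM, 91 of the 500 members were higher and 392 lower in K2, and 57 were at 0 in K2 late libraries and 41 in 49CX late libraries. Of the 369 members that passed the low-count filter, 4 (1.08%) were called higher and 153 (41.5%) lower in K2 (edgeR), beside 16.5% and 15.8% of all genes tested. Their median log2 fold change was -1.39, and that of all genes tested -0.01. The filter took in all 18 microspore libraries, so members could pass through groups where they were high. The set held 17.4% of gene counts in unheated and 14.3% in heated 49CX microspores. Fitted on the 6 late libraries alone, where fewer genes passed the filter, 0 were called higher and 68 lower, and with no filter 4 and 100. The numbers of members tested in those fits are not given.

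The most abundant pollen transcripts showed this most. The 10 members highest in pollen summed to 1103 CPM in K2 late and 14881 CPM in 49CX late microspores, against 89902 CPM in the pollen library. Their late level was a median of 0.204% of their pollen level in K2 (0.0120% to 5.90%) and 19.1% in 49CX (2.54% to 42.1%). Across the 500 members, Spearman's rho between the late and the pollen level was 0.0457 in K2 and 0.227 in 49CX, a description across genes. In leaf the pollen set held 0.495% ± 0.0721 in K2 and 0.644% ± 0.0723 in 49CX (SD, n = 3 each), with K2 libraries at 0.450%, 0.578% and 0.457% and 49CX libraries at 0.613%, 0.727% and 0.593%. The leaf groups did not overlap either, at a much smaller distance (exact permutation p = 0.1). The set was chosen for low levels in these same K2 leaf libraries, so the leaf comparison is not independent of that choice.

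Leaf set genes were higher in K2 late microspores. They made up 4.57%, 4.73% and 4.72% of gene counts in the K2 late libraries and 2.55%, 2.46% and 2.56% in the 49CX late libraries. The groups did not overlap. The means were 4.67% ± 0.0902 in K2 and 2.52% ± 0.0599 in 49CX (SD, n = 3 each), 1.85-fold higher in K2, with the exact 2-sided permutation p again at its smallest value of 0.1. By pooled CPM 427 of the 500 members were higher and 73 lower in K2, 1 was at 0 in K2 late libraries and 43 in 49CX late libraries. Of 282 members tested, 160 (56.7%) were called higher and 6 (2.13%) lower (edgeR), beside 16.5% and 15.8% of all genes tested, and their median log2 fold change was 1.10. Members could pass the low-count filter through K2 late microspores alone, the microspore group where the set was highest. In leaf itself, where the K2 libraries had chosen the set, it held 11.4% ± 0.804 in K2 and 12.8% ± 0.166 in 49CX (SD, n = 3 each). There the groups did not overlap and K2 was the lower, with 11.6%, 10.5% and 12.02% in K2 and 12.6%, 12.9% and 12.7% in 49CX (exact permutation p = 0.1).

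The leaf set stands in for markers of leaf cells, since no named markers could be matched to the IDs. Across its 500 members, Spearman's rho between the late level and the K2 leaf level was 0.310 in K2 and 0.0916 in 49CX, across genes. Its 10 members highest in K2 leaf summed to 1520 CPM in K2 late and 967 CPM in 49CX late microspores, against 8370 CPM in K2 leaf. Their late level was a median of 16.5% of their K2 leaf level in K2 (3.26% to 42.9%) and 2.85% in 49CX (0.711% to 80.4%). All 500 members were at 0 in the pollen library, but the set was chosen for low levels in that same library. Whether leaf-type RNA had a part in the line difference was not tested. Outside the 3 sets, 1374 of 8643 genes were called higher and 1312 lower in K2. A fit without the set members called 1406 genes higher and 1274 lower.

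Embryo set genes were called about as often as genes in general, and in both directions. They made up 0.390%, 0.415% and 0.387% of gene counts in K2 late libraries and 0.282%, 0.333% and 0.323% in 49CX late libraries, with no overlap. The means were 0.397% ± 0.0157 in K2 and 0.313% ± 0.0272 in 49CX (SD, n = 3 each, exact permutation p = 0.1). The difference of 0.0848 percentage points turned to -0.0159 without the 10 members with most counts. By pooled CPM 89 of 209 members were higher and 109 lower in K2. Of the 82 tested, 12 (14.6%) were called higher and 12 (14.6%) lower (edgeR), beside 16.5% and 15.8% of all genes tested, and their median log2 fold change was -0.08.

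**Figure D2:**
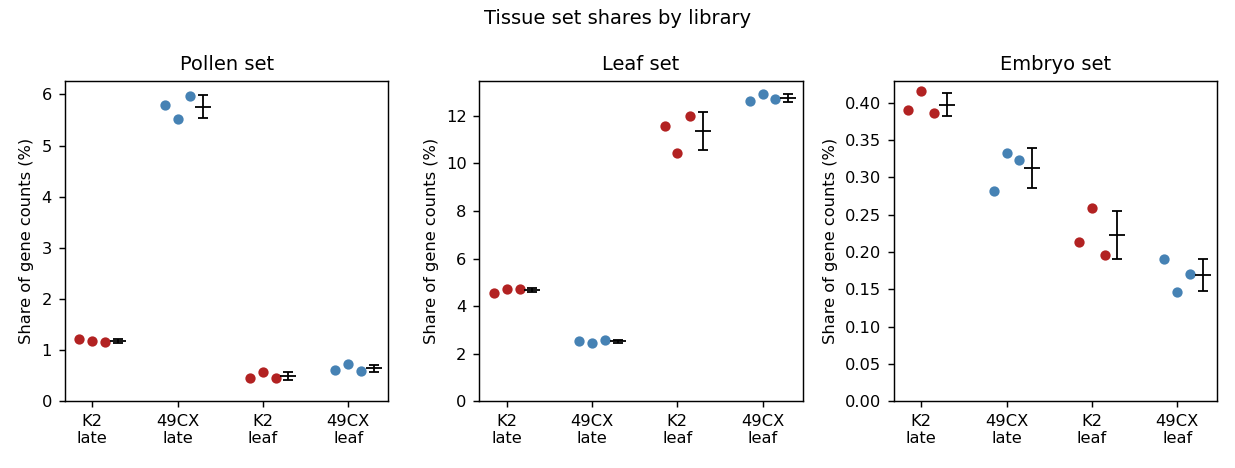
Share of gene counts (y, percent) held by the pollen, leaf and embryo sets in each library of K2 late microspores, 49CX late microspores, K2 leaf and 49CX leaf (x). Points are libraries, K2 in red and 49CX in blue, and bars show the mean and SD of 3; the pollen set stands at 1.16% to 1.22% in K2 late and 5.52% to 5.96% in 49CX late microspores, and the leaf set at 4.57% to 4.73% and 2.46% to 2.56%.

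The median line difference also fell along a ranking of all tested genes from leaf-type to pollen-type. All 9376 genes were ranked by the ratio of their K2 pollen to their K2 leaf level (log2 of CPM + 5) and split into 5 bins. From the most leaf-type to the most pollen-type bin, the median late log2 fold change, K2 over 49CX, was 0.69, 0.11, -0.01, -0.29 and -0.90. In the leaf-type bin 719 genes were called higher and 77 lower in K2, and in the pollen-type bin 113 higher and 637 lower (edgeR). With the members of the 3 sets left out, the medians of these outer bins were 0.62 and -0.79. With 49CX leaf in place of K2 leaf and all genes kept, the medians of the 5 bins were 0.60, 0.09, -0.13, -0.14 and -0.72. There the bin next to the pollen-type bin was balanced, with 315 genes called higher and 323 lower in K2. The pollen level rests on 1 library with 118317 gene counts and 7978 IDs detected. In the ranking by K2 leaf the leaf-type bin was also the more abundant, with a median of 79.5 CPM against 36.0 CPM in the pollen-type bin. This ranking was chosen after values of these libraries were seen and is a description.

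The most abundant genes held a smaller share of counts in K2, while fewer genes on average were detected there at a common depth. These shares were taken at the full, unequal depths of the libraries, and the part of depth was not tested. The 50 most abundant genes held 8.05%, 7.80% and 7.83% of gene counts in K2 late libraries and 9.79%, 9.46% and 9.06% in 49CX late libraries. The groups did not overlap, with means of 7.89% ± 0.137 in K2 and 9.44% ± 0.364 in 49CX (SD, n = 3 each, exact permutation p = 0.1). At a common depth of 85651 counts, 18768, 20855 and 19327 genes were detected in K2 and 20608, 22121 and 22899 in 49CX. These ranges overlapped, with means of 19650 ± 1080 and 21876 ± 1165 (SD, n = 3 each, exact permutation p = 0.2). In both lines the library with the largest share of reads outside genes, K2 replicate 2 and 49CX replicate 3, was the one with most genes detected at that depth.

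Leaf of the same lines was used to ask which differences also appear outside the microspore. A fit of the 12 late and leaf libraries tested 12890 genes. In late microspores it called 1999 genes (15.5%) higher and 1013 (7.86%) lower in K2. In leaf it called 2848 (22.1%) higher and 2961 (23%) lower in K2 (edgeR). The medians of all genes were 0.27 in late microspores and 0 in leaf. By library size alone they were 0.08 and 0.24, the leaf split was 3589 higher and 2378 lower, and the late split 1574 and 1253. The leaf shares of each direction are the background for the counts that follow.

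Genes lower in K2 late microspores had leaf calls mostly in the same direction, and genes higher in K2 late microspores had them in both directions alike. Of the 1013, 426 (42.1%) were called lower and 100 (9.87%) higher in leaf, against 23% and 22.1% of all genes. Of the 1999 genes higher in K2 late microspores, 526 (26.3%) were called higher and 534 (26.7%) lower in leaf, near the 22.1% and 23% of all genes in either direction. The 526 genes higher in both tissues were 18.5% of those higher in leaf, and the 426 lower in both were 14.4% of those lower in leaf. Thus 952 genes were called the same way in both tissues. With library size as the only scaling there were 490 higher and 433 lower in both tissues, DESeq2's size factors 428 and 486, and DESeq2's Wald test 256 and 416. Genes higher in late microspores and lower in leaf numbered 534, and the reverse 100, which became 349 and 189 by library size alone.

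The difference between the tissues was tested directly. The line effect in late microspores minus that in leaf was called for 3459 genes, 2361 positive (18.3%) and 1098 negative (8.52%) (edgeR, interaction term). By library size alone the split was 1678 positive and 1728 negative, so its tilt depends on the scaling. Of 939 genes higher in K2 late microspores and not called in leaf, 528 had a called difference between tissues, and of 487 lower ones, 181 did. For the other 411 and 306 the difference was not called, which does not show that leaf and microspores were alike. Among the 952 genes called the same way in both tissues the difference was called for 54 of those higher and 105 of those lower.

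**Figure D3:**
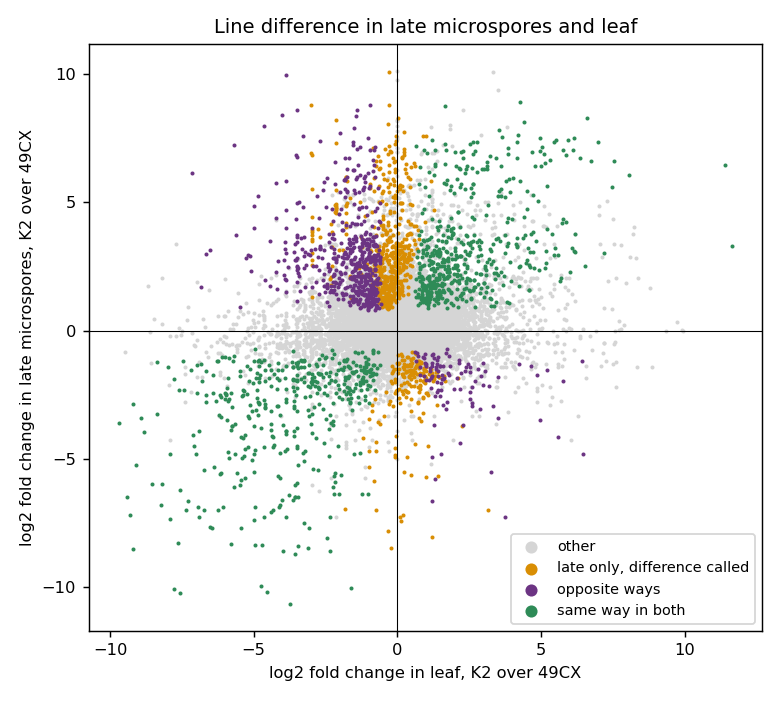
Each point is 1 of the 12890 genes of the late and leaf fit, by its log2 fold change in leaf (x) and in late microspores (y), both K2 over 49CX. Green marks the 952 genes called the same way in both tissues, purple the 634 called opposite ways, and orange the 709 called in late microspores and not in leaf whose difference between tissues was called.

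Leaf set genes were called mostly in one direction in late microspores and in both directions in leaf. All 500 of its members were tested in this fit. The K2 leaf libraries helped choose the leaf and pollen sets, so leaf calls and differences between tissues are not independent of that choice. In late microspores 227 leaf set members were called higher and 5 lower in K2. In leaf 154 were called higher and 167 lower, with a median leaf log2 fold change of -0.07. Of all 12890 genes, 15.5% were called higher and 7.86% lower in late microspores, and 22.1% and 23% in leaf. The difference between tissues was called positive for 231 and negative for 32 leaf set members (edgeR), beside 18.3% and 8.52% of all genes. Of the 195 pollen set members tested here, 3 were higher and 81 lower in K2 late microspores, and 22 higher and 63 lower in K2 leaf. The difference was called positive for 21 and negative for 30 of them, the reverse order to that of all genes.

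Many of the late differences were also called in the later microspore samples, with and without heat. In unheated microspores 15.4% of the 9376 genes were called higher and 17.2% lower in K2, and in heated microspores 25% higher and 24.8% lower. Of the 1483 genes lower in K2 late microspores, 717 (48.3%) were lower in K2 without heat, 938 (63.3%) with heat and 570 (38.4%) in both. Of the 1550 genes higher in K2 late microspores, 537 (34.6%) were higher without heat, 693 (44.7%) with heat and 272 (17.5%) in both (edgeR). Over all 9376 genes, 1108 (11.8%) were lower and 585 (6.24%) higher in K2 in both later comparisons. Opposite calls were few, 68 and 120 of the lower and 42 and 82 of the higher genes without and with heat. The 272 and 570 genes, 842 in all, became 398 and 471 by library size alone. The 3 microspore comparisons share no library, but they share 1 fit and its filter. In the unheated comparison the ambiguous-read share stood at 0.248% to 0.281% in K2 and 0.820% to 1.15% in 49CX, and its part was not tested.

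Counting leaf as well, 73 genes were higher and 186 lower in K2 in all 4 kinds of sample, of 8030 genes present in both fits. Across the 9376 genes, Pearson's r between the late line difference and that of another kind of sample was 0.226 for leaf, 0.463 for unheated and 0.513 for heated microspores (pooled log2 of CPM + 5). Between leaf and unheated microspores it was 0.0321, and between leaf and heated microspores 0.342. These are descriptions across genes, and the pairs share no library.

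Some transcripts were seen in 1 line alone. In K2 late microspores 197 IDs had at least 5 counts in every library while 49CX had 0, and in 49CX 17 IDs had at least 5 counts in every library while K2 had 0. The depths differ, and with all 6 libraries thinned to 85651 counts the numbers were 41 and 36. The K2 IDs averaged 19.2 to 378 CPM, median 39.3, and stood at least 1.72-fold to 39.7-fold higher than 49CX against its group floor. The 49CX IDs averaged 54.9 to 578 CPM, median 123, and were at least 17.5-fold to 188-fold lower in K2. In 49CX leaf, 37 of the 197 were also at 0 and 91 had counts in all 3 libraries. Among the 17, 5 were at 0 in K2 leaf and 6 had counts in all 3 K2 leaf libraries. Many of these transcripts appeared elsewhere in the other line: 77 of the 197 had counts in unheated and 114 in heated 49CX microspores, and of the 17, 15 had counts in unheated and 9 in heated K2 microspores.

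A small group kept apart by line in both tissues. With at least 5 counts in each of the 6 K2 late and leaf libraries and at most 1 count over the 6 of 49CX, 33 IDs were found, and 4 with the lines exchanged. The rule was chosen after values were seen. In unheated microspores 28 of the 33 were higher and 2 lower in K2 by pooled CPM, with a median of 9.003 CPM in K2 and 0 in 49CX. In heated microspores 31 were higher and 1 lower in K2, with medians of 19.9 CPM and 0. Of the 33, 30 had counts in K2 embryos and 6 in K2 pollen. All 4 of the other kind were lower in K2 in unheated and in heated microspores. Of these 4, 1 was at 0 in unheated and 2 in heated K2 microspores. Their medians were 10.7 CPM in K2 and 117 CPM in 49CX without heat, and 1.66 and 126 CPM with heat. How far these IDs bear on the line labels was not tested.

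BraC02g046840.1 had the largest rise among IDs higher in K2 in both tissues, and is an embryo set member. It had 185, 125 and 161 CPM in K2 late libraries and 0 counts in all 3 49CX late libraries. It was at least 17.2-fold higher in K2 (edgeR, adjusted p = 1.19e-13). This ID and those below were picked among called genes with no overlap between the late lines. Their separation and their calls in late microspores thus follow from the pick. In leaf it had 23.4, 32.8 and 14.4 CPM in K2 and 0, 0 and 1.90 CPM in 49CX. The difference between the tissues was not called (4.65 on the log2 scale, edgeR adjusted p = 0.278). With heat it had 160 ± 67.6 CPM in K2 and 8.65 ± 7.52 in 49CX, and without heat 3.45 ± 0.581 in K2 and 3.005 ± 2.62 in 49CX (SD, n = 3 each), so unheated K2 did not show the difference.

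BraC05g001230.1 had the largest fall among IDs lower in K2 in both tissues. It had 0 counts in all 3 K2 late libraries and 642, 502 and 590 CPM in 49CX late libraries. It was at least 188-fold lower in K2 (edgeR, adjusted p = 1.46e-55). In leaf it had 1.07, 1.31 and 4.24 CPM in K2 and 46.9, 31.7 and 19.0 CPM in 49CX. The groups did not overlap in leaf, and the difference between tissues was called (-6.96 on the log2 scale, edgeR adjusted p = 0.00011). The gene was detected in other K2 samples. It had 1166 ± 18.3 CPM in unheated K2 and 2411 ± 156 in unheated 49CX microspores, 1.44 ± 2.49 in heated K2 and 1376 ± 181 in heated 49CX (SD, n = 3 each), and 5840 CPM in the K2 pollen library.

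BraC01g023020.1 was the ID with the largest rise among those higher in K2 late microspores and not called in leaf. It had 423, 332 and 332 CPM in K2 late libraries and 0 counts in all 3 49CX late libraries, at least 39.7-fold higher in K2 (edgeR, adjusted p = 1.9e-25). In leaf it had 0, 2.63 and 0 CPM in K2 and 0, 1.87 and 0 in 49CX, at most 2 counts in a library. The difference between tissues was called, as the pick required (10.41 on the log2 scale, edgeR adjusted p = 0.0132). Without 49CX leaf replicate 2, which holds the only 49CX leaf count, the difference was 8.28 and the call was lost (edgeR adjusted p = 0.999988). With heat it had 131 ± 26.0 CPM in K2 and 0 counts in 49CX, and without heat 2.56 ± 4.43 CPM in K2 and 1.39 ± 2.41 in 49CX (SD, n = 3 each).

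BraC02g005450.1 was the ID with the largest fall among those lower in K2 late microspores and not called in leaf. It had 0 counts in all 3 K2 late libraries and 80.2, 105 and 185 CPM in 49CX late libraries, at least 40.2-fold lower in K2 (edgeR, adjusted p = 3.79e-18). In leaf it had 3.20, 3.94 and 2.54 CPM in K2 and 0, 5.60 and 1.90 CPM in 49CX, with overlap. The difference between tissues was called, as the pick required (-8.26 on the log2 scale, edgeR adjusted p = 6.27e-05). Without heat it had 176 ± 39.6 CPM in K2 and 1070 ± 187 in 49CX, and with heat 0 counts in K2 and 1304 ± 259 CPM in 49CX (SD, n = 3 each). The K2 pollen library held 3820 CPM. Both IDs lower in K2 were thus at 0 in late K2 and present in unheated K2 microspores and in K2 pollen. Neither is a pollen set member.

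**Figure D4:**
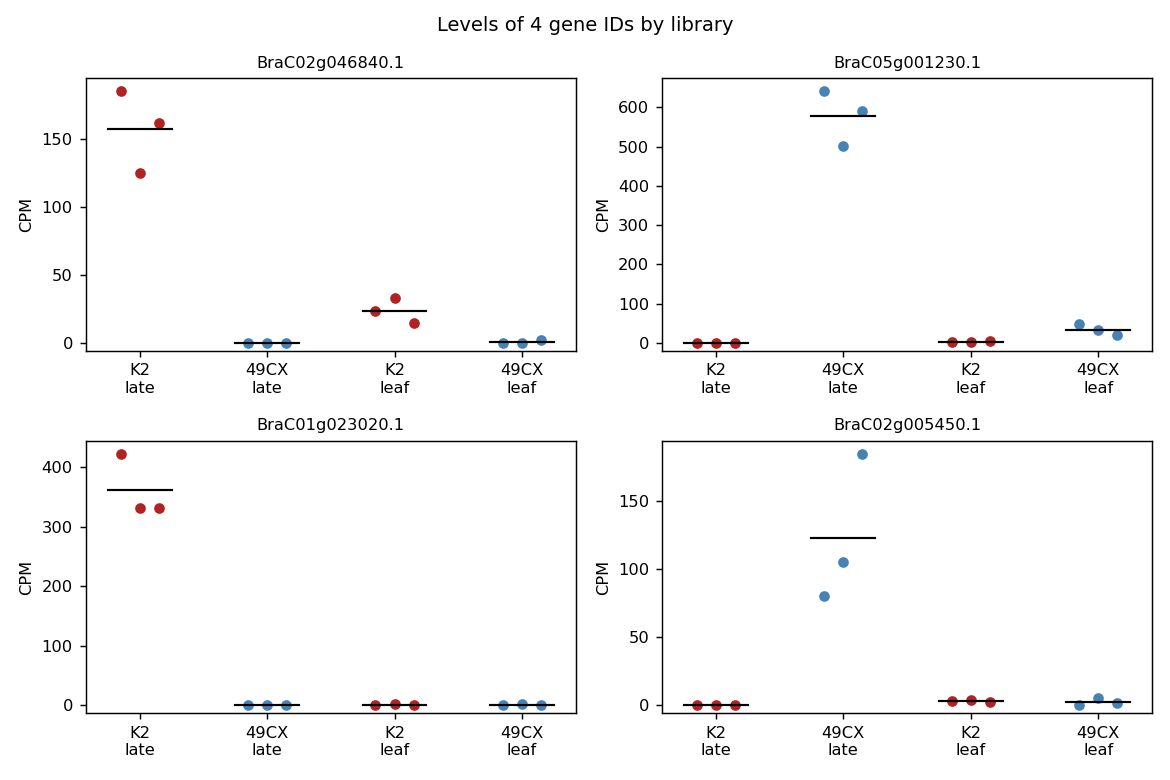
CPM (y, linear) of BraC02g046840.1, BraC05g001230.1, BraC01g023020.1 and BraC02g005450.1 in each library of K2 late microspores, 49CX late microspores, K2 leaf and 49CX leaf (x), with K2 in red, 49CX in blue and lines at the means. In late microspores each ID is at 0 in all 3 libraries of 1 line, and in leaf all 4 stay at or under 46.9 CPM.

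Genes that differed in both tissues were also looked at by their neighbours in ID number, as a description with no test. Of the 12890 genes, 4.08% were higher in K2 in both tissues, and of the tested genes that follow such a gene in ID order 8.19% were. For genes lower in both, the shares were 3.30% and 9.65%. Where at least 5 tested genes in a row were called the same way in both tissues, the stretch was taken as a run, a rule chosen after values were seen and given no test. There were 2 runs, 8 genes with IDs starting BraC01 and 9 starting BraC06, all higher in K2. With the genes of these runs taken out, the next gene was also higher in both tissues for 5.51%, beside 3.95% of all genes, and the share for genes lower in both stayed at 9.65%.

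Summed over its 8 genes, the BraC01 run stood at 429 to 554 CPM in K2 late and 23.4 to 44.6 CPM in 49CX late libraries, and at 402 to 1243 CPM in K2 leaf and 37.5 to 70.3 CPM in 49CX leaf. The BraC06 run stood at 689 to 840 CPM in K2 late and 17.8 to 70.5 CPM in 49CX late libraries, and at 537 to 1613 CPM in K2 leaf and 37.5 to 78.3 CPM in 49CX leaf. The rule for a run required each gene to be called the same way in both tissues, so this gap between the lines follows from the rule. In unheated K2 microspores, however, the runs held only 3.83 to 25.02 and 7.46 to 22.2 CPM, and in heated K2 97.3 to 233 and 134 to 216 CPM. In 49CX they held 0 to 12.5 and 24.2 to 26.6 CPM without heat, and 9.27 to 20.4 and 20.4 to 30.8 CPM with heat. Without heat the BraC06 run was thus lower in K2 than in 49CX, with no overlap, but on very few counts. Both runs together held 4, 17 and 7 counts in the unheated K2 libraries and 5, 5 and 9 in those of 49CX. These counts are too few to give a direction for the unheated samples. With heat both runs were higher in K2. Neighbouring IDs can share reads where genes overlap or are near-identical, and how the counting treated such reads is not given in the sources used here, so levels of single genes in these runs are uncertain. Without the genes of the runs 2994 genes were called in late microspores in the 12-library fit, against 3012 with them.

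**Figure D5:**
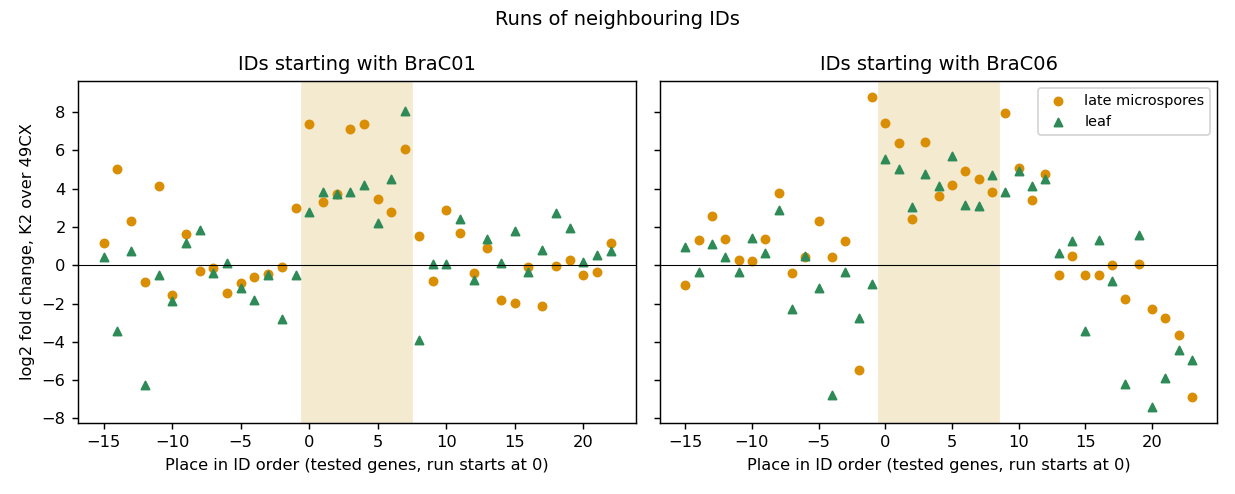
log2 fold change, K2 over 49CX (y), of tested genes by their place in ID order (x, the run starting at 0), for the BraC01 run (left) and the BraC06 run (right). Orange circles are late microspores, green triangles leaf, and the shaded band is the run. There all 8 and all 9 genes lie above 0 in both tissues, as the rule for a run required.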

How the data were processed

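RNA-seq of K2 and 49CX late microspores, with leaf of both lines and other samples where named, was re-analysed from the deposited raw read counts per gene. Per the submitters' processing notes Trim Galore, HISAT2, Picard and HTSeq were used. Libraries were strand-specific per the labels' protocols. The strand setting of the counting, the tool versions, the build and its annotation were not given in the sources read. Each library listed 47135 gene IDs, of which 0 matched the RefSeq table CAAS_Brap_v3.01, so no names or sequences are given. The closing summary entries, which belong to no gene, took no part in totals or tests. K2 pollen replicates 2 and 3 held 0 gene counts and were not used.

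Counts were tested with edgeR 4.0.16 in R 4.3.3 (robust quasi-likelihood fit, TMM, filterByExpr on groups, Benjamini-Hochberg over all genes tested, adjusted p under 0.05). The 18 microspore libraries formed one fit, and the 12 late and leaf libraries another with an interaction term. Tissue sets came from the K2 pollen, leaf and embryo libraries. Exact 2-sided permutation tests (scipy 1.17.1) served for values with 1 number a library. CPM are scaled by the total of gene counts. Floors (3 counts) cover only counting error, as no molecular identifiers mark independent molecules.

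On simulated counts for 9376 genes in the late comparison, with 200 changed, edgeR recovered 55 of 100 genes changed 4-fold and 12 of 100 changed 2-fold, with 5 false among 72 calls. For the difference between tissues it recovered 20 and 1 of 100. The data had 3033 calls among the 9376 genes, far more than the 200 changed here. The recovered shares may therefore not carry over to the data.

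Because the IDs carry no names, the IDs named are 2 higher and 2 lower in K2 in late microspores: in each direction the largest change among called genes whose CPM did not overlap between lines and whose mean log2 CPM reached 3, once among genes called the same way in leaf and once among genes with a called difference between tissues and no call in leaf. The members, sets and tests were chosen with earlier results of these data known. Alternatives were DESeq2 1.42.0, other scalings and filters, thinned counts, fewer libraries and the replicate number as a block.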

Additional observations from a re-analysis of the deposited data

Results flagged for a closer look

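The line difference was not the same in late microspores and leaf for 3459 genes, by a test of the difference itself (edgeR, interaction term over 12 libraries). Among the IDs named, BraC05g001230.1 had a difference of -6.96 between its late and its leaf log2 fold change, with K2 lower in both tissues. BraC01g023020.1 had a difference of 10.41, with K2 higher in late microspores and at most 2 counts per leaf library. BraC02g005450.1 had a difference of -8.26, with K2 lower in late microspores and overlapping leaf values. BraC01g023020.1 and BraC02g005450.1 were picked for a called difference between tissues, so their calls follow from the pick. The share of ambiguous reads, 0.712% to 1.03% in K2 leaf and 0.211% to 0.258% in 49CX leaf, moves with the leaf part of these differences, and its part was not tested.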

How the results depend on the processing

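Of 414 values recomputed under alternatives, 373 kept their direction and their side of the threshold or stayed near the reported value by a broad rule. For counts of genes the rule looked at the total alone and not at the split of directions. The difference between tissues counted as near by library size alone, although 2361 positive and 1098 negative became 1678 and 1728. A leaf total of 7217 against 5809 also counted as near. Thinned to 85651 counts, edgeR called 810 genes in late microspores (798 by at least 2-fold), 75 pollen, 27 leaf and 9 embryo set members, 362 genes in leaf, 325 for the difference between tissues, 55 the same way in both tissues and 184 in all 3 microspore comparisons. Fewer genes passed the filter there, 3108 and 2525 in the 2 fits. BraC05g001230.1 then lost its call for the difference between tissues (-5.56, adjusted p = 0.205, edgeR). Fitted on the 6 late libraries alone, 1582 genes were called by at least 2-fold, 68 pollen and 11 embryo set members, and with no filter 104 pollen set members. With sets at least 8-fold, 13 embryo members were called, and the K2 minus 49CX share differed by -5.50 percentage points for pollen and 1.97 for leaf. Without the 10 members with most counts it was -2.19 for pollen and turned to -0.0159 for embryo, the cause of which was not tested. The difference in genes detected was -23.0 at 5000 counts, and that in the share of the 10 most abundant genes -0.488 points. IDs seen in K2 alone numbered 65 at 10 counts, 1483 at 1 count and 41 thinned, and 200 to 416 without one library. IDs seen in 49CX alone numbered 6, 394, 36 and 21 to 31.

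Leaving out 1 library gave 2592 to 2942 calls in late microspores, 4090 to 7217 in leaf and 2726 to 4069 for the difference between tissues. Summing K2 late replicates 2 and 3 gave 3085 calls in late microspores. No pairing by replicate number was seen. Deviations of same-numbered libraries correlated at -0.00995 to 0.0110 in late microspores and -0.0703 to -0.00232 in leaf. The late replicates differed by little more than counting noise (chi-square 1.04 to 1.33 per degree of freedom), so a pairing could go unseen there. With the replicate block 2987 genes were called in late microspores and 3418 for the difference between tissues. The fit that built the sets takes the spread of the single K2 pollen library from the other groups.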
